A study of Mus musculus with 17 samples.

Results

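The effect of doxycycline by itself on where CHD7 was found on chromatin was examined in the mouse myeloid progenitor line 416B, in cells that carried a control construct in place of the inducible leukaemia fusion Cbfb-Myh11 (CM). The comparison used the CHD7 ChIP-seq peak lists of 4 of the series' 17 samples: Control -Dox replicates 1 and 2, and Control +Dox replicates 1 and 2. Peaks of the 4 lists that overlapped by at least 1 bp were merged into 48636 sites, against 85223 sites when the CHD7 lists of all 8 libraries of the series were merged. A site called in both +Dox and in neither -Dox library is named +Dox-only here (977 sites), the reverse -Dox-only (1058 sites), and a site called in every one of the 4 libraries all-4 (6727 sites). The remaining sites were called in 1 library (30209) or in other combinations of 2 or 3 libraries (9665).

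Both groups were the same kind of cell. Per the labels, the cells were co-transfected with a plasmid that expresses the tetracycline silencer tTS, the transactivator rtTA and blasticidin resistance from an Ef1alpha promoter, and with the tetracycline-responsive plasmid in a form without the CM protein (construct Control-ATG). Both plasmids were integrated with the transposase PL623, and mCherry-negative single cells were sorted and grown as clones under blasticidin. The labels do not say how many clones stand behind the 4 libraries. The +Dox cells received doxycycline at 1 ug/ml for 24 hours before harvest and the -Dox cells received none. Effects of the drug and of anything it induced from the integrated plasmids cannot be told apart. Other cells of the series carried the CM cDNA joined to mCherry (CM -Dox and CM +Dox); they enter below only as libraries that did not choose the sites.

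CHD7 is an ATP-dependent chromatin remodeller of the chromodomain helicase family. It slides nucleosomes at enhancers and promoters, and loss of 1 copy of its gene causes CHARGE syndrome in people, a disorder of neural crest and other tissues. RUNX1 is a transcription factor required to form and maintain blood progenitors. Doxycycline is a tetracycline antibiotic that switches rtTA on and so drives tetracycline-responsive genes. It also inhibits translation by mitochondrial ribosomes, and control cells given the drug are used to see its effects without the induced gene.

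Promoter sequences are shown for the highest-ranked sites of each class that lay on a promoter, because the classes share sequence features described below. Each is the RefSeq window (GRCm38.p6, the assembly called mm10) from 250 bases before to 50 after the gene's start, written 5′ to 3′ on the gene's strand. Capitals mark the letters TGTGGT (RUNX) or CCGGAA (ETS) on either strand, so the reverse complements ACCACA and TTCCGG are also in capitals. The +Dox-only sites gave Acvr2a, an activin receptor (chr2:48813859-48814158, plus strand), and Pno1, a ribosome assembly factor (chr11:17211540-17211839, minus strand).
Acvr2a: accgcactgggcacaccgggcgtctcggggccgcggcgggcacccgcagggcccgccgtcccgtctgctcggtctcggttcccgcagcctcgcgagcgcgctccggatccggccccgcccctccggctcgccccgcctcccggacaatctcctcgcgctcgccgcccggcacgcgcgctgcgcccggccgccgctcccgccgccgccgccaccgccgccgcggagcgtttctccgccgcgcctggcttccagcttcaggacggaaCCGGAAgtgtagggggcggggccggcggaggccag
Pno1: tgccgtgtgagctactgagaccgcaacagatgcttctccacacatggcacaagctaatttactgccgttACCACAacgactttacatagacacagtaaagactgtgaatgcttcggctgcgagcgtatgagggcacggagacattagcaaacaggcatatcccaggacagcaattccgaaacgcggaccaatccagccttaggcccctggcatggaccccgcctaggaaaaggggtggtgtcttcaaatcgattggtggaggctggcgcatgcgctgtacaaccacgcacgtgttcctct

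The -Dox-only sites gave Gnptab, a subunit of the enzyme that tags lysosomal proteins with mannose phosphate (chr10:88379018-88379317, plus strand), and Ncapg, a condensin subunit (chr5:45669675-45669974, plus strand).
Gnptab: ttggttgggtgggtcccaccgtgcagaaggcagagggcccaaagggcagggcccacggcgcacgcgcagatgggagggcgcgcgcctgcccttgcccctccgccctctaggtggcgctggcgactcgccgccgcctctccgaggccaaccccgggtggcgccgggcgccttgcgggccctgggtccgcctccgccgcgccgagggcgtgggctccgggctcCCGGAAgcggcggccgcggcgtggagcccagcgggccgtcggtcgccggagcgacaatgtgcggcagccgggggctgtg
Ncapg: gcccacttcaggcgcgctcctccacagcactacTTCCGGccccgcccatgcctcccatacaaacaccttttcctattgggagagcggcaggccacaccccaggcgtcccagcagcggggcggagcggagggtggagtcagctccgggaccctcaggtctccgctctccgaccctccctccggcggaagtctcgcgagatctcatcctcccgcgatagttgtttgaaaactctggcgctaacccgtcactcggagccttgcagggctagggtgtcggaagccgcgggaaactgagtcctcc

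The all-4 sites gave Dhx8, a splicing helicase (chr11:101732706-101733005, plus strand), and Rnf216, a ubiquitin ligase (chr5:143112971-143113270, minus strand).
Dhx8: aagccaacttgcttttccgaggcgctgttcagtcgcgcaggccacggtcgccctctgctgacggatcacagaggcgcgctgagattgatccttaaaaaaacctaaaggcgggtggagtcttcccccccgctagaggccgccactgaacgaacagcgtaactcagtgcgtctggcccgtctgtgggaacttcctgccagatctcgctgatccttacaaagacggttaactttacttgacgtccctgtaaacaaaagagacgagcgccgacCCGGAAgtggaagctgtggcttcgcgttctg
Rnf216: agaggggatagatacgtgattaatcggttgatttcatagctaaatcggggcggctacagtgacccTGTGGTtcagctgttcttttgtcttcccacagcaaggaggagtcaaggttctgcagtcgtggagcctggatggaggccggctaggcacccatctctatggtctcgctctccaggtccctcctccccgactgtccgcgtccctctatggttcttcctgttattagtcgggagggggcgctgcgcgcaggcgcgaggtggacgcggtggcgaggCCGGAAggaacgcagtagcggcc

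The ETS letters were found once each in the Acvr2a, Gnptab, Ncapg, Dhx8 and Rnf216 windows. The RUNX letters were found once each in those of Pno1 and Rnf216. The next promoter by rank in each class, those of Taf5, Add1 and Arhgef1, held neither. CG dinucleotides numbered 54 in the Acvr2a window, 41 in Gnptab, 25 in Dhx8, 24 in Ncapg, 22 in Rnf216 and 17 in Pno1. A match of letters is a description of the window and not a bound site.

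The Control -Dox lists held 17857 and 21486 peaks and the Control +Dox lists 16323 and 32448, so the values without the drug lay between those with it. Together the peaks covered 7.58 and 9.52 Mb without doxycycline, and 7.21 and 12.1 Mb with it. The score of a peak is the authors' −log10 p-value, and the 4 lists ended at scores of 2.01 to 2.02, just above their stated p threshold of 0.01. Median scores were 3.60 to 3.81, and 28.5% to 41.6% of peaks of a list scored under 3. Read depth is unknown, so neither a peak number nor a score is an amount of CHD7. The ratio of peak numbers, +Dox over -Dox by geometric means, was 1.17 (two-sided exact permutation test over 6 choices, p = 1.00). It was 0.914 between the libraries numbered 1 and 1.51 between those numbered 2, and 0.833 without Control +Dox replicate 2, the library with the longest list. With 2 libraries a side no such test can give a p under 0.33, so none can reach 0.05. Benjamini-Hochberg adjustment over the 8 tests of this report gave an adjusted p of 1.00 for each. Nothing in the labels says whether the replicates were separate cultures, so these p-values measure only the spread between libraries, which may be technical.

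The labels were checked at the genes joined in the fusion. Control CHD7 libraries held 0 to 2 peaks in Cbfb, the RUNX partner subunit, and 0 to 1 in Myh11, smooth muscle myosin, against 5 to 9 and 3 to 6 in the CHD7 libraries of CM cells. Peaks give no transcript levels, so the labelled cell type could not be checked against the expression of its markers. At Chd7 itself (chromosome 4, 8690402 to 8868449) the lists held 1 and 2 peaks without doxycycline, and 1 and 4 with it. At Runx1 (chromosome 16, 92601466 to 92826074) they held 6 and 10 peaks without it, and 8 and 15 with it. For both genes the highest number came from Control +Dox replicate 2.

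Few of all CHD7 sites separated the treatments, though sites of 1 library cannot belong to either treatment-specific class. The +Dox libraries shared 9815 sites, of which 977 were +Dox-only. The -Dox libraries shared 10385, of which 1058 were -Dox-only. The 977 +Dox-only sites were 2.01% of all sites and the 1058 -Dox-only sites 2.18%, while the 6727 all-4 sites were 13.8% and the sites of 1 library 62.1%. Combinations that mix the treatments were as common: 2080 sites were called in both libraries numbered 2 and no other, and 650 in both numbered 1. Another 1124 were called only in -Dox replicate 2 and +Dox replicate 1, and 1100 only in -Dox replicate 1 and +Dox replicate 2. Of the 6 pairs of libraries, 3 held more sites of their own than the -Dox pair, and 4 held more than the +Dox pair. Control +Dox replicate 2 alone gave 17234 sites, 35.4% of all. Leaving out any 1 of the 4 libraries raised both classes, to 1622 to 18374 +Dox-only and 2309 to 6965 -Dox-only sites, because a class then needs fewer libraries; the highest counts came without Control +Dox replicate 1 and without Control -Dox replicate 1. These counts carry no test.

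**Figure D1:**
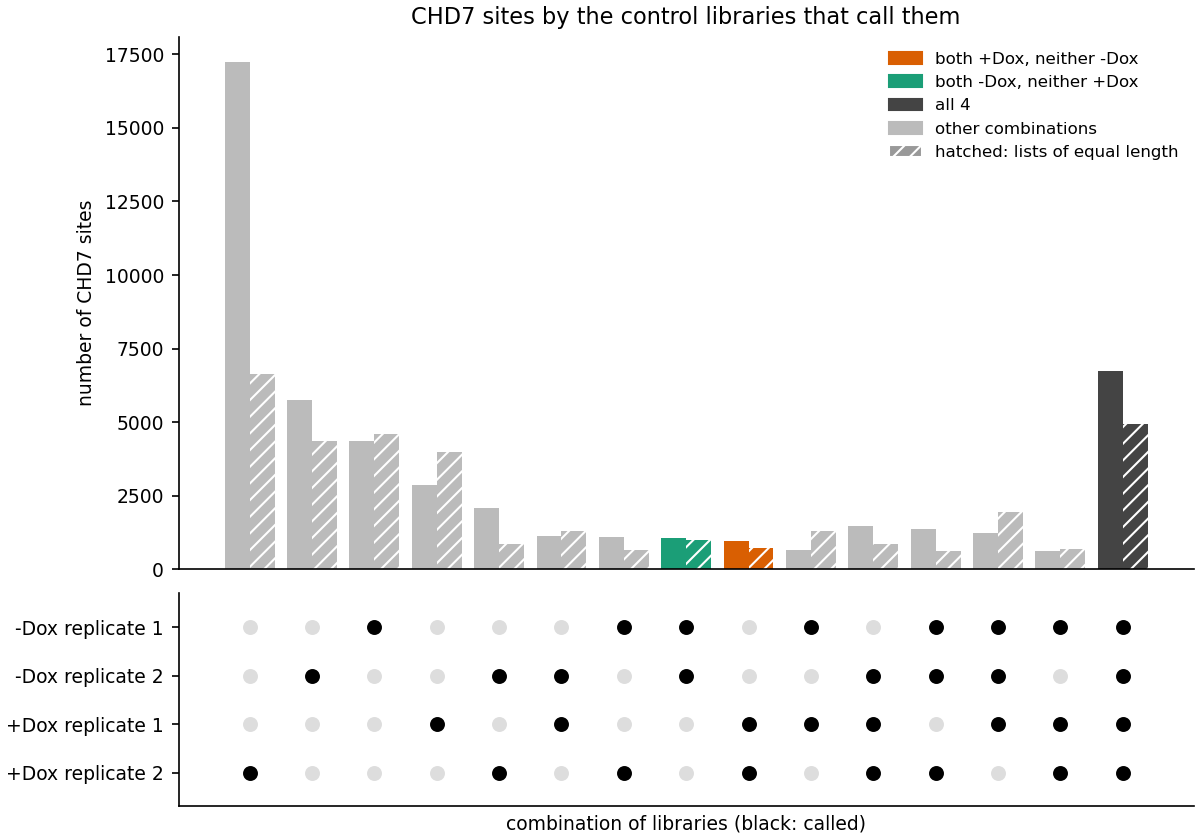
The vertical axis gives the number of CHD7 sites called in exactly the libraries marked black below each bar; plain bars use the lists as deposited and hatched bars the same number of top peaks per list. The 2 coloured pairs of bars, sites particular to 1 treatment (977 and 1058 as deposited), stand among the combinations that mix treatments, and the tallest bar is Control +Dox replicate 2 alone (17234).

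The counts moved with list length. With the 16323 highest-scoring peaks of every list there were 34483 sites, of which 712 were +Dox-only (2.06%), 1008 were -Dox-only (2.92%) and 4926 were all-4 (14.3%). At this length the other pairs held 867 (both numbered 2), 1288 (both numbered 1), 1309 and 654 sites. By this count 2 pairs held more than the -Dox pair, and 4 held more than the +Dox pair. Many scores are tied. With the peaks tied at the end of each shortened list left out, there were 761 +Dox-only, 821 -Dox-only and 4694 all-4 sites. Of the +Dox-only sites of the full lists, 495 (50.7%) stayed +Dox-only at equal length. Among -Dox-only sites 669 (63.2%) did so, and among all-4 sites 4925 (73.2%).

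Libraries of the same treatment did not overlap more than libraries of different treatments. The sites shared by 2 libraries, as a share of the sites either calls, were 37.7% for the -Dox pair and 26.2% for the +Dox pair. Across treatments the share was 39.2% for the libraries numbered 1, 28.6% for those numbered 2, 40.7% for -Dox 2 with +Dox 1 and 25.3% for -Dox 1 with +Dox 2. At equal length the same-treatment pairs shared 36.8% and 29.4%, and the 4 mixed pairs 27.8% to 40.1%. Every pair that included Control +Dox replicate 2 stood below every pair that did not. Across the all-4 sites, the Spearman correlation of the scores was 0.577 for the -Dox pair, 0.550 for the +Dox pair and 0.526 to 0.593 for the mixed pairs; sites of 1 genome are not independent replicates, and this is a description.

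By their highest score, sites particular to 1 treatment were weakly scored beside all-4 sites, but not beside all sites. A site called in more libraries has more scores from which the highest is taken. Within single libraries the gap was smaller. There the median scores were 3.21 and 3.81 for +Dox-only, 3.10 and 3.47 for -Dox-only, 4.48 to 5.59 for all-4 and 3.62 to 3.81 for all sites. The highest score of a site in any of the 4 lists had a median of 4.15 for +Dox-only sites, 3.81 for -Dox-only sites, 6.81 for all-4 sites and 3.32 for sites of 1 library. Over all sites the median was 3.81, and for other combinations of 2 or 3 libraries it was 4.67. Of the 1799 sites that reached a score of 10, 1658 were all-4, 2 were +Dox-only, 0 were -Dox-only and 13 were called in 1 library. The best-scored +Dox-only site reached 13.1 and the best-scored -Dox-only site 9.46, while the best all-4 site reached 247. Among the 846 sites that reached 20, 840 were all-4. Of the 15576 sites whose highest score lay between 2 and 3, 90.8% were called in 1 library.

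**Figure D2:**
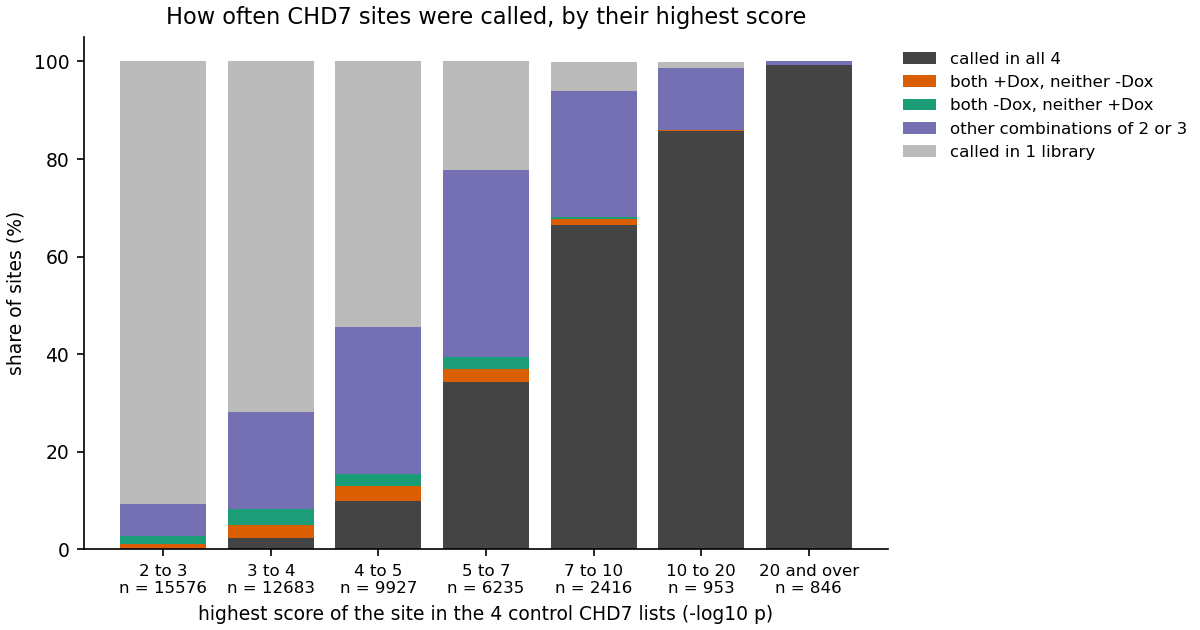
Stacked bars give the share of CHD7 sites (%) in each calling class, by the highest score of the site in the 4 control lists (−log10 p); the number of sites is under each bar. All-4 sites fill 99.3% of the bar at scores of 20 and over, and sites of 1 library fill 90.8% of the bar at 2 to 3, with both treatment-specific classes thin in every bar. A site called in more libraries has more scores from which the highest is taken.

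In overlap with promoter windows and gene ends, the 2 treatment-specific classes were close to each other and lay between sites of 1 library and all-4 sites. A RefSeq promoter window was overlapped by 7.78% of +Dox-only sites (Wilson 95% interval 6.26 to 9.63) and by 8.98% of -Dox-only sites (7.40 to 10.9), against 23.5% of all-4 sites and 3.39% of sites of 1 library. At a gene end, that is less than 1 kb from it, lay 20.2% of +Dox-only sites (17.8 to 22.8), 23.1% of -Dox-only sites (20.6 to 25.7), 32.9% of all-4 sites and 11.9% of sites of 1 library. Over all sites these shares were 7.85% for promoter windows, within the intervals of both treatment-specific classes, and 17.6% for gene ends. For other combinations of 2 or 3 libraries they were 10.8% and 23.7%. Inside a gene lay 59.4% of +Dox-only, 62.0% of -Dox-only, 63.0% of all-4 sites and 62.5% of sites of 1 library, so there the treatment-specific classes were not between the others. Site width moved with class, with medians of 457, 450, 854 and 257 bp, and its part in these shares was not tested. An all-4 site lay within 2 kb of 13.8% of +Dox-only and 11.7% of -Dox-only sites. The intervals cover counting error only.

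Sites also differed between classes in how many lay where RUNX1 was found. There were 9506 RUNX1 sites called in all 4 RUNX1 libraries of control cells. They were overlapped by 15.1% of +Dox-only sites (13 to 17.5), 15.8% of -Dox-only sites (13.7 to 18.1), 48.5% of all-4 sites and 5.06% of sites of 1 library. Over all sites, most of them called in 1 library, the share was 15%, within the intervals of both treatment-specific classes. For other combinations of 2 or 3 libraries it was 22.5% (21.6 to 23.3), above both treatment-specific classes. Read from the RUNX1 side, CHD7 was called at 47.0% and 61.4% of the 9506 RUNX1 sites without doxycycline and at 49.4% and 56.6% with it, so both +Dox values lay between the -Dox values. At equal list length they were 45.8% and 52.9% without, and 49.4% and 41.9% with doxycycline.

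Over whole lists, the share of CHD7 peaks within 1 kb of a gene end was 23.3% and 25.6% without doxycycline, and 25.6% and 16.6% with it. The means were 24.4% ± 1.65 and 21.1% ± 6.37 (SD, n = 2 each), a difference of -3.35 percentage points (two-sided exact permutation test, p = 0.667). The share of CHD7 peaks on a RUNX1 site was 25.5% and 27.6% without doxycycline, and 29.3% and 16.9% with it. Its means were 26.6% ± 1.46 and 23.1% ± 8.75 (SD, n = 2 each), a difference of -3.48 points (same exact test, p = 1.00). In both measures 1 +Dox library was at or above the -Dox values, and the other, Control +Dox replicate 2, was the lowest of the 4. Without Control +Dox replicate 2 the differences turned to 1.15 points for gene ends and 2.71 for RUNX1 sites. With the same number of top peaks per list that library still had the lowest shares, 19.8% and 24.6%.

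At the all-4 sites the order of the scores was compared between treatments. Sites were ranked by score within each library over the same 6727 sites, which removes any general shift between libraries, so that only a change of order can show. Both +Dox ranks lay above both -Dox ranks at 1069 of the 6727 sites (15.9%). Both -Dox ranks lay above both +Dox ranks at 1174 (17.5%). When the libraries were divided by replicate number instead, the counts were 1193 and 1191 (17.7% each). The difference of mean ranks, +Dox minus -Dox, ran from -32.0 to 32.0 percentile points between the 5th and 95th percentiles of the sites. Among sites with the widest gaps, chosen after their values were seen, 1 in Galk2, a galactokinase family gene, scored 3.0 and 3.0 without doxycycline, and 6.55 and 8.59 with it. One in Ndrg3 scored 6.68 and 7.53 without, and 2.96 and 2.96 with doxycycline. In either case the 2 treatments did not overlap, but all scores were under 10.

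The +Dox-only sites with the highest ranks were led by Acvr2a (chromosome 2, 48814102 to 48814657, in the gene), whose scores were 9.25 and 8.09 with doxycycline and which was not called without it. Of the libraries of CM cells only CM -Dox replicate 2 called CHD7 there, with a score of 2.55. In Capn2, a calcium-dependent protease (chromosome 1, 182506259 to 182507107), the scores were 6.68 and 7.53. The Capn2 site was called in 3 of 4 control RUNX1 libraries and 3 of 4 CHD7 libraries of CM cells. In Mrc1, the macrophage mannose receptor (chromosome 2, 14249964 to 14250291), they were 5.99 and 6.55. A site 2.66 kb from Irgm1, an interferon-induced GTPase (chromosome 11, 48874080 to 48874839), scored 5.59 and 6.55 and was called in all 4 CHD7 libraries of CM cells, 2 of which had no doxycycline.

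Others of the 12 top-ranked +Dox-only sites lay in Spag17, Arrdc2 and Cmah, or had Socs7, Zmynd8, Cartpt, Nrp1 or Phf3 as the nearest gene. The Arrdc2 site (chromosome 8, 70839349 to 70839588), in an arrestin-domain gene, scored 5.31 and 6.56 in CHD7 and was called in all 4 control RUNX1 libraries, with and without doxycycline. The site near Phf3 (23.2 kb away) had the highest score of the class, 13.1 in +Dox replicate 2, against 4.67 in +Dox replicate 1. Of the 12, 6 lay in a gene, 2 were called in all 4 control RUNX1 libraries and 8 in none. In CHD7 libraries of CM cells 3 of the 12 were called in all 4, and 1 in none.

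Among the -Dox-only sites the highest rank belonged to 1 that lay 8.80 kb from Pigv, a mannosyltransferase of GPI anchor synthesis (chromosome 4, 133650129 to 133650562), with scores of 6.68 and 5.86 without doxycycline. A site 1.71 kb from Ppp1r21 (chromosome 17, 88527807 to 88528418) scored 4.67 and 7.55. The Gnptab promoter site (chromosome 10, 88378961 to 88379302) scored 4.33 and 9.32, and the Ncapg promoter site (chromosome 5, 45669908 to 45670180) 4.70 and 6.22. Both promoters are those printed above. CHD7 was called at Gnptab in both CM +Dox libraries, with scores of 3.62 and 4.33, and in CM -Dox replicate 2, with a score of 3.25.

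The site in Orai1, the pore subunit of store-operated calcium channels (chromosome 5, 123025131 to 123025593), scored 5.08 and 5.86 without doxycycline. In Lyst, a regulator of lysosomal trafficking (chromosome 13, 13612895 to 13613198), the scores were 4.67 and 6.55, and CM -Dox replicate 2 and CM +Dox replicate 2 also called the site, with scores of 8.59 and 18. In Nol4l (chromosome 2, 153495779 to 153496029) the CHD7 scores were 4.79 and 6.22, and RUNX1 was called in all 4 control libraries with scores of 97.1 to 120. The others of the 12 lay in Puf60, Tpcn2, Tgm7 and Wbp4, or nearest to Bicra, a subunit of a SWI/SNF remodeller. Of the 12, 9 lay in a gene, 3 were called in all 4 control RUNX1 libraries and 8 in none.

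The highest-ranked all-4 sites had scores over 100 in all 4 libraries. At the Dhx8 promoter (chromosome 11, 101732245 to 101733526) the scores were 162 and 224 without doxycycline, and 139 and 247 with it. At Rnf216 (chromosome 5, 143112006 to 143113450) they were 142 and 194, and 127 and 222. At Arhgef1, a guanine nucleotide exchange factor (chromosome 7, 24903657 to 24905307), they were 156 and 192, and 112 and 238. In these genes, in both treatments, the library numbered 2 had the higher score, and the treatments overlapped. Next in rank came sites in Diaph1, Stoml1, Mtmr6, Nus1, Mettl18, Nek4, Zkscan14, Ercc1 and Shcbp1. All 12 lay in a gene and were called in every CHD7 library of CM cells, and 8 of the 12 were called in all 4 control RUNX1 libraries.

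The all-4 sites were not uniform. They were divided by mean rank into 4 groups of 1681 or 1682 sites. In the highest-ranked group 44.9% overlapped a promoter window (42.6 to 47.3), against 15.6% to 17.0% in the other groups. On a RUNX1 site lay 34.1% of the lowest group, 45.4% and 59.8% of the next, and 54.9% of the highest. From the lowest group to the highest, both +Dox ranks lay above both -Dox ranks at 16.8%, 14.1%, 15.9% and 16.6% of sites, and the reverse held at 16.5%, 19.5%, 16.7% and 17.1%. The widest gap was in group 2, with 238 sites against 328.

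**Figure D3:**
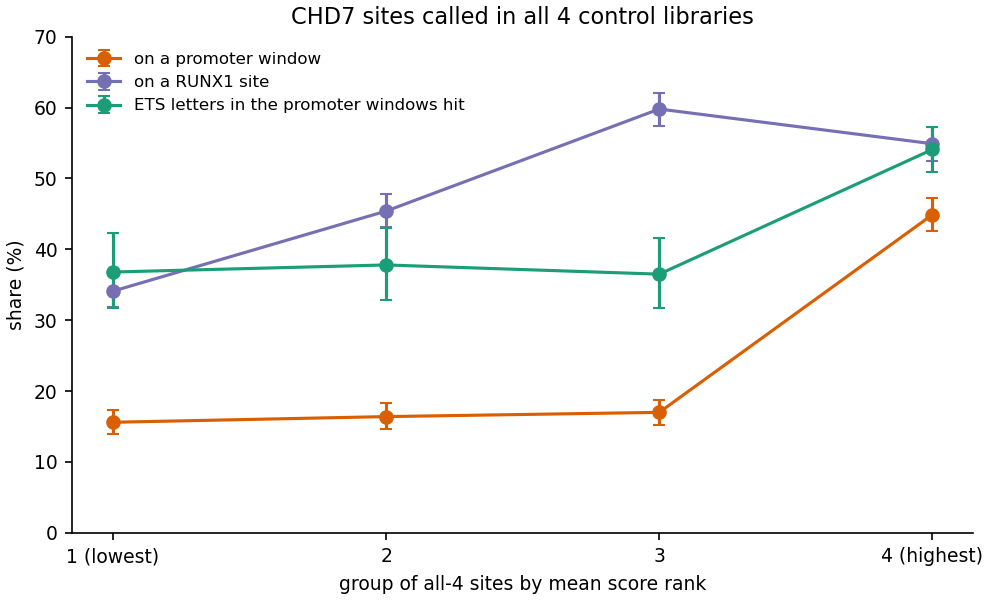
The horizontal axis divides the all-4 CHD7 sites into 4 groups of equal size by mean score rank, and the vertical axis gives shares (%): of sites on a promoter window, of sites on a RUNX1 site, and of overlapped promoter windows that hold the ETS letters; bars are Wilson 95% intervals. Promoter overlap stands apart in group 4, the highest (44.9%), and RUNX1 overlap is highest in group 3 (59.8%).

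Promoters under CHD7 were rich in CG and in ETS letters whatever the treatment. The windows of all protein-coding genes numbered 21263, for 17492 of 21887 genes, with none on chromosome 18. The ETS letters were in 18.7% of all windows and in 34.5% of the 87 windows overlapped by +Dox-only sites (25.3 to 44.9). They were in 33.9% of the 112 overlapped by -Dox-only sites (25.8 to 43.1), and in 45.3% of the 1986 overlapped by all-4 sites (43.1 to 47.5). In the 4521 windows overlapped by any control CHD7 site the ETS share was 38.6% (37.2 to 40.0), with a median of 21 CG dinucleotides. That ETS share lay within the intervals of both treatment-specific classes. The median number of CG dinucleotides per window was 13 in all windows, 20 for +Dox-only, 23 for -Dox-only and 21 for all-4 sites; since the ETS letters contain CG, its part in their share was not tested. The RUNX letters were in 15% of all windows, 16.1% for +Dox-only (9.83 to 25.2), 8.93% for -Dox-only (4.92 to 15.7) and 12.5% for all-4 sites. The GATA letters AGATAA, or TTATCT on the other strand, were in 9.65%, 8.05%, 2.68% and 7.50% in that order. These GATA shares rest on 7 windows for +Dox-only (3.95 to 15.7) and 3 for -Dox-only sites (0.915 to 7.58). Among windows overlapped by any control CHD7 site the GATA share was 6.97%. Within the all-4 class the ETS letters were in 54.1% of windows of the highest-ranked group and in 36.5% to 37.8% of the others.

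Libraries that did not choose the sites were then read at them. In CM cells, doxycycline also induces the fusion, and the drug and the fusion cannot be told apart. CM -Dox libraries called CHD7 at 29.8% and 59.2% of +Dox-only sites, and CM +Dox libraries at 37.7% and 52.9%. The means were 44.5% ± 20.8 and 45.3% ± 10.8 (SD, n = 2 each), a difference of 0.819 points (exact permutation test, p = 1.00). At -Dox-only sites the values were 38.4% and 62.4% for CM -Dox, and 44.4% and 57.8% for CM +Dox, a difference of 0.709 points (exact permutation test, p = 1.00). The +Dox values lay within the -Dox range at both classes. Over all 48636 sites the shares were 28.7% and 43.6% for CM -Dox, and 32.1% and 39.4% for CM +Dox, so at +Dox-only sites CM -Dox replicate 1 was close to its share of all sites. With lists of equal length the differences were -2.95 and -1.54 points. At +Dox-only sites leaving out a CM library gave differences from -13.9 (without CM -Dox replicate 1) to 15.5 (without CM -Dox replicate 2).

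Subtracting the 2 classes within each library removes its list length in part. The +Dox-only share minus the -Dox-only share was -8.59 and -3.22 points in the CM -Dox libraries, and -6.76 and -4.83 in the CM +Dox libraries. It was below 0 in all 4, and the treatments differed by 0.110 points (exact permutation test, p = 1.00), or by -1.41 with lists of equal length. In at least 1 of these 4 libraries 80.5% of +Dox-only sites and 84.8% of -Dox-only sites were called. Of the +Dox-only sites 39 (3.99%) were called in both CM +Dox and neither CM -Dox library, and 33 (3.38%) the other way round. Of the -Dox-only sites 51 (4.82%) were called in both CM +Dox and neither CM -Dox library, and 36 (3.40%) the other way round. Among all-4 sites 98.0% were called in at least 1 of the 4 CM libraries. There 42 sites (0.624%) were called in both CM +Dox and neither CM -Dox library, and 214 (3.18%) the other way round. The shares over all sites were not counted, so these patterns have no background to be read against. The CHD7 lists of CM cells held 1.37% to 1.62% of their peaks on chromosome 14 and 7.85% to 8.29% on chromosome 19, against 4.03% to 4.30% and 2.27% to 2.86% in control cells. Without these 2 chromosomes the differences at the 2 classes were 1.15 and 1.05 points.

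RUNX1 in the same control cells gave the other independent reading. RUNX1 was called at 20.3% and 20.1% of +Dox-only CHD7 sites without doxycycline, and at 20.3% and 19.3% with it, a difference of -0.358 points (exact permutation test, p = 1.00). At -Dox-only sites it was called at 23.4% and 22.3% without, and 21.7% and 19.6% with doxycycline. There the treatments did not overlap; the difference was -2.22 points, and p = 0.33 was the smallest the exact permutation test can give. All-4 sites showed the same order, with RUNX1 called at 60.1% and 60% without, and 59.0% and 56.1% with doxycycline. So did all 48636 sites, with 19.7% and 19.6% without, and 19.2% and 18.2% with doxycycline, and the values at +Dox-only sites were close to these. The RUNX1 lists held 14010 and 13820 peaks without doxycycline, and 13660 and 12603 with it, and the part of that length in these shares was not tested. A +Dox tag stands in the peak names of 1 of these lists, the one labelled Control -Dox RUNX1 replicate 1. Without that list the differences were -0.256 points at +Dox-only and -1.65 at -Dox-only sites. Leaving out each library in turn gave -3.31 to -0.783 points at the -Dox-only sites.

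**Figure D4:**
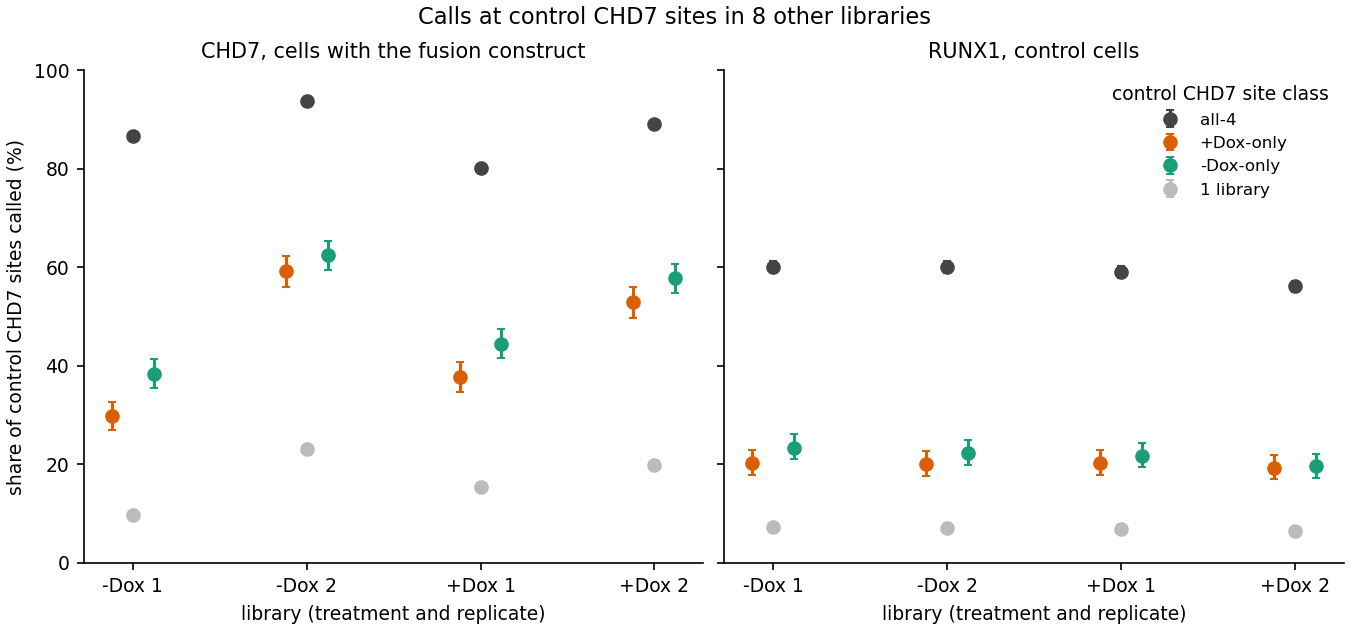
Each point is the share (%) of a class of control CHD7 sites called in 1 library, with CHD7 libraries of CM cells on the left and RUNX1 libraries of control cells on the right; bars are Wilson 95% intervals for counting error. The order of the classes is the same in all 8 libraries, all-4 highest and sites of 1 library lowest, and +Dox-only sites are below -Dox-only sites both with and without doxycycline.

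Genes were assigned every site in the gene or within 5 kb of either end. Of 21887 protein-coding genes, 779 (3.56%) had a +Dox-only site and 878 (4.01%) a -Dox-only site. A CHD7 site called in both libraries was found at 26.9% of genes without doxycycline and at 25.8% with it (5890 and 5641 genes, or 5205 and 4570 with lists of equal length). For 962 genes (4.40%) there was such a site with doxycycline and none without, and for 1211 (5.53%) the reverse. Of 283 genes in 15 lists, 17 (6.01%) had a +Dox-only and 20 (7.07%) a -Dox-only site, both above the share of all genes. In most lists a larger share of genes than of all genes had a CHD7 site in both treatments, as the plot by list shows, and its part in these counts was not tested. No list was tested.

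Genes of mitochondria, where doxycycline has its known effect on translation, were examined first. Of 22 mitochondrial ribosomal protein genes, 3 had a +Dox-only site (Mrpl1, Mrpl48 and Mrps7) and 0 a -Dox-only site. Over all protein-coding genes 3.56% had a +Dox-only and 4.01% a -Dox-only site. The scores with doxycycline were low: 2.70 and 2.48 in Mrpl1, 3.62 and 3.81 at Mrpl48, and 3.55 and 3.58 at Mrps7. At equal length the list of Control +Dox replicate 2 ended at a score of 3.81. The Mrpl1 and Mrps7 sites scored below that in this library, and the Mrpl48 site stood at it. A site in both libraries was present at 13 of the 22 genes without doxycycline and at 14 with it (13 and 12 with lists of equal length), and 13 had an all-4 site. The highest ranks were at Mrpl12, with scores of 61.4 and 95.1 without, and 46.4 and 85.9 with doxycycline, and at Mrps2, with 51.0 and 83.8, and 46.4 and 73.4. Of 22 cytosolic ribosomal protein genes, 0 had a +Dox-only and 3 a -Dox-only site (Rpl3, Rps6 and Rps19). The cytosolic list had a site in both libraries at 16 genes without and 14 with doxycycline. At Rpl18 the scores were 99.4 and 141 without, and 85.0 and 148 with it.

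Of 24 genes of oxidative phosphorylation, 1 had a +Dox-only site (Cox7c, a subunit of cytochrome oxidase, scores 2.96 and 3.0) and 0 a -Dox-only site. Their highest ranks were at Ndufaf1, an assembly factor of the first respiratory complex, with best scores of 57.8 and 137 without, and 72.8 and 123 with doxycycline. Of 28 genes of the integrated and mitochondrial stress responses, 1 had a +Dox-only site (Slc7a11, the cystine transporter, 2.97 and 3.97) and 1 a -Dox-only site (Cebpg, a bZIP factor, 2.34 and 2.22). At Lonp1, the mitochondrial protease, the scores were 57.9 and 87.6 without, and 49.9 and 67.5 with doxycycline. At Trib3, a target of the stress factor ATF4, they were 21.4 and 48.1, and 21.4 and 27.9. A site in both libraries was present at 12 of the 28 genes without and 10 with doxycycline.

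Glycolysis genes, 18 in all, had +Dox-only sites at 3 (Hif1a, the hypoxia factor; Pdk1, a pyruvate dehydrogenase kinase; Pfkp, a phosphofructokinase) and -Dox-only sites at 2 (the glucose transporters Slc2a1 and Slc2a3). Slc2a1 had 2 -Dox-only sites, with scores of 2.13 and 2.96, and of 3.24 and 4.84, and no site in either +Dox library. In Pfkp the +Dox-only site scored 3.81 and 4.67, while each -Dox library called 1 other site of the gene. A site in both libraries was present at 10 glycolysis genes without and 10 with doxycycline, and at 10 and 6 with lists of equal length. Of 19 metal and oxidative stress genes, 1 had a +Dox-only site (Fth1, ferritin heavy chain, 2.96 and 5.86) and 2 a -Dox-only site (Gclc, of glutathione synthesis, and Sod2, the mitochondrial superoxide dismutase). In this list 11 genes had a site in both libraries without and 9 with doxycycline.

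Of 24 transcription factors of blood stem and progenitor cells, 2 had +Dox-only sites (Myb, with 2 such sites, and Nfe2) and 3 had -Dox-only sites (Fli1, Ikzf1 and Meis1). The better Myb site (chromosome 10, 21153422 to 21154277) scored 3.62 and 3.97 with doxycycline, and was called in all 4 control RUNX1 libraries and all 4 CHD7 libraries of CM cells. The Ikzf1 site scored 4.59 and 2.94 without doxycycline. Meis1 also had an all-4 site, and its best scores were 8.21 and 9.25 without, and 9.66 and 8.41 with doxycycline. At Runx1 there were 5 all-4 sites and none particular to a treatment. A site in both libraries was present at 11 of the 24 genes without and 12 with doxycycline, and at 9 and 9 with lists of equal length.

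Of 25 myeloid differentiation genes, 0 had a +Dox-only and 1 a -Dox-only site (Fcgr3, an Fc receptor, 2.25 and 2.34). Of 20 megakaryocyte and mast cell genes, 2 had a +Dox-only site (Rgs18 and Selp) and 2 a -Dox-only site (Pf4 and Selp again), so Selp, which encodes P-selectin, had 1 of each kind. Rgs18, a regulator of G protein signalling, scored 3.81 and 6.55 at its +Dox-only site. The best score of any site of the gene in each library was 13.1 and 20.5 without, and 19.2 and 21.8 with doxycycline. Of 20 cell cycle genes, 3 had a +Dox-only site (Ccnd2, Cdk6 and Mki67) and 3 a -Dox-only site (Ccna2, Ccnd3 and E2f1). E2f1, a factor of S-phase entry, had the highest scores of these, 4.37 and 6.33 without doxycycline. A site in both libraries was present at 11 cell cycle genes without and 13 with doxycycline, but at 10 and 7 with lists of equal length.

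Of 15 CHD family and other remodeller genes, 1 had a +Dox-only site (Chd2, 3.81 and 3.0) and 1 a -Dox-only site (Chd4, 2.24 and 8.72). In this list 9 genes had a site in both libraries without doxycycline and 6 with it, the genes without one being Chd4, Smarcc1 and Ino80. At Ino80 every control library had 2 or more sites, so the gene differed in whether the same site was called in both. Of 16 genes listed here as neural crest genes or CHD7 targets, 0 had a +Dox-only and 2 a -Dox-only site (Sema3a and Snai2). The lymphoid and liver lists had no site particular to a treatment, with 0 of 16 and 0 of 12 genes in either direction. Over all protein-coding genes the shares were 3.56% with a +Dox-only and 4.01% with a -Dox-only site. In lists this short a count of 0 is near those shares. The scores of 112 to 238 at Cd79a, a B cell gene, are those of the Arhgef1 promoter site, which lies within 5 kb of it.

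**Figure D5:**
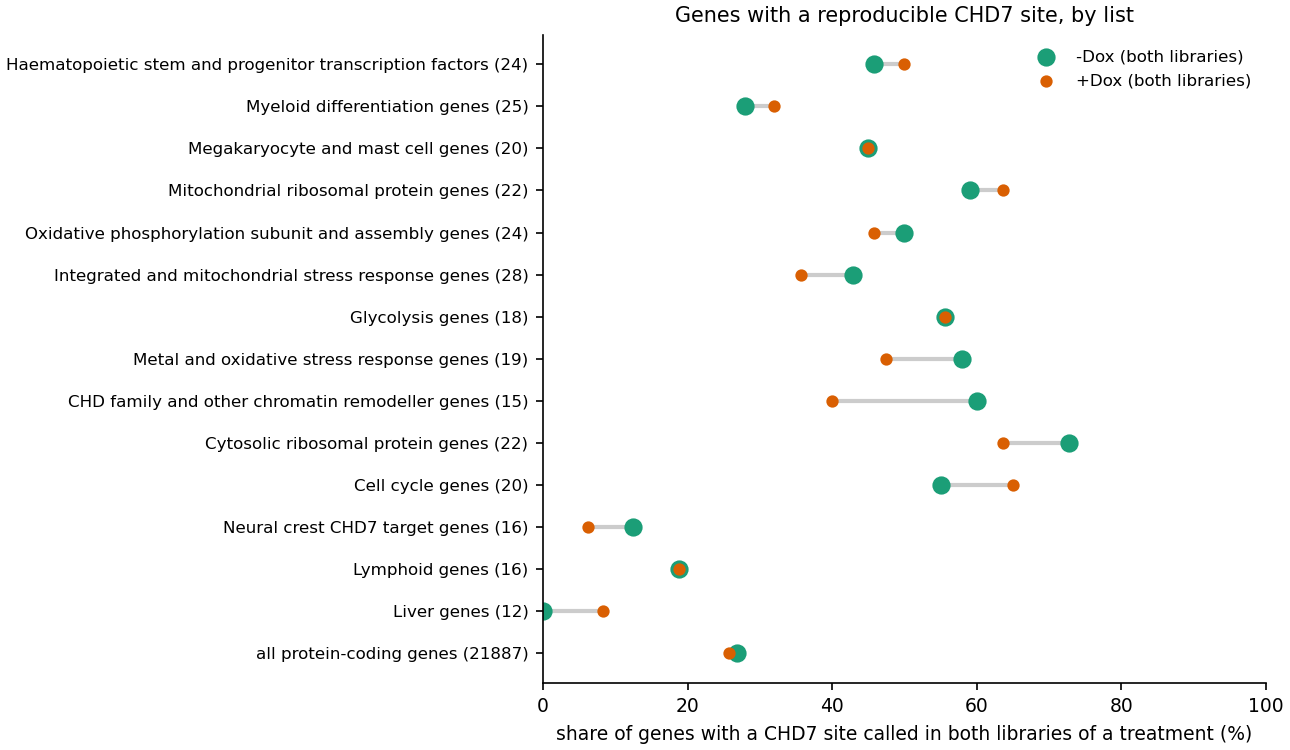
The horizontal axis gives the share of genes (%) with a CHD7 site called in both libraries of a treatment, for each gene list (number of genes in brackets) and all protein-coding genes; large points are without and small points with doxycycline. Shares with doxycycline are lower in some lists (remodellers, 60% and 40%), higher in others (cell cycle, 55% and 65%, a direction that turns with lists of equal length, at 10 and 7 of 20 genes) and 26.9% and 25.8% over all genes.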

How the data were processed

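CHD7 and RUNX1 were measured by ChIP-seq in 416B cells. Reads were processed with Bowtie2 2.0.6 and MACS2 2.0.10 on mm10, per the submitters' processing notes; the control library of the calls is not given in the sources used here, nor is read depth. Per library, the authors deposited 1 peak list, whose score is the −log10 of the peak's p-value; this was read from the values, since each list ends just above the threshold in its peak names (0.01 for CHD7). Scores rank peaks within a list only. All chromosomes were used but the mitochondrial one, on which 3 to 6 peaks per list were left out. Peaks overlapping by 1 bp were merged, and a site counted as called where a library had a peak on it. The score of a site is that of its best peak, and its rank is the percentile in the list. Genes came from RefSeq GRCm38.p6 (21887 protein-coding, no strand or exons); exons and UTRs were not used.

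Shares per library were compared by two-sided exact permutation over 6 choices of 2 libraries from 4, with Benjamini-Hochberg adjustment over 8 tests (Python 3.11.15, pandas 2.3.3, scipy 1.17.1). Site merging and the assignment of classes were tested on simulated lists of widely spaced sites, so the joining of close neighbours was not tested. The exact permutation test was checked on a small fixed example. The members and gene lists were chosen with earlier results of these data known. Named were up to 12 sites per class by mean rank, genes of the 15 lists with a treatment-specific site, up to 3 genes per list with an all-4 site, and Chd7, Runx1, Cbfb and Myh11; genes named beside a count of 5 or fewer were chosen after their values were seen. Alternatives were equal list length, scores at or above the pooled median of 3.81, an overlap of 0.5 of the shorter peak, merging over all 8 lists, and leaving out each library. Joining peaks only by 0.5 of the shorter, leaving out chromosomes 14 and 19, and the difference between the classes in CM cells were chosen after seeing the data. The library labelled Control -Dox RUNX1 replicate 1, whose peak names carry a +Dox tag, was kept in its labelled group.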

Additional observations from a re-analysis of the deposited data

How the results depend on the processing

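No test had a p under 0.33 with any alternative, and 2 libraries a side limit all of them; depth is unknown. Leaving out each library in turn gave 1622 to 18374 +Dox-only sites and 2309 to 6965 -Dox-only sites, because a class then needs fewer libraries; each of the 4 libraries moved its class counts by over 1.5 times. It gave ratios of peak numbers of 0.833 to 1.66, and differences of -7.85 to 1.15 points for gene ends, -9.67 to 2.71 for RUNX1 sites, -13.9 to 15.5 for CHD7 in CM cells at +Dox-only sites, -11.3 to 12.7 at -Dox-only sites, -4.03 to 3.64 for their difference, and -0.914 to 0.102 for RUNX1 at +Dox-only sites. At scores of 3.81 and over there were 757 +Dox-only, 496 -Dox-only and 3069 all-4 sites, so that +Dox-only sites were the more numerous, and CHD7 in CM cells differed by -4.29 points at +Dox-only and -4.64 at -Dox-only sites. With lists of equal length these were -2.95 and -1.54, and their difference -1.41; with an overlap of 0.5 of the shorter peak -1.07, -0.425 and -0.649; and with sites merged over 8 lists that last difference was -0.116. The cause of these changes was not tested. Replicates share numbers in the labels, so a replicate block was also run: the differences are those of the unblocked tests (ratio 1.17, -3.35, -3.48, 0.819, 0.709, -0.358, -2.22 and 0.110), and its smallest possible p is 0.5. Calls of same-numbered libraries deviated together with a correlation of -0.0357 (0.0120 at equal length). With 2 pairs, and with most sites called in 1 library, this cannot show whether the numbers pair the samples.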

Other observations

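A few stretches of the genome were dense in CHD7 sites of control cells. Of 2343 bins of 1 Mb with a site, the median held 15 sites and 10 held 100 or more. The densest, with 199 sites, holds Mbnl1, a splicing regulator, and had 96 and 96 peaks without doxycycline, and 93 and 171 with it. The next, with 159 sites, holds Resf1 and Bicd1, and 1 with 129 sites holds the lectin genes Clec12b, Clec1a and Clec9a. A bin with Angpt1, the ligand of the TIE2 receptor, had 125 sites. A bin of histone genes that includes H2bc6 and H2bc4 had 102 sites, of which 45 were all-4. All 10 bins were also dense in the CHD7 lists of CM cells, with 24 to 132 peaks each, and held 5 to 30 peaks in the control RUNX1 lists. Together they held 2.59% of all sites, 35 of the +Dox-only (3.58%), 21 of the -Dox-only (1.98%) and 217 of the all-4 sites (3.23%). The bins were chosen after their values were seen, and copy number of these stretches in 416B cells was not tested.

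Genes with 3 or more sites particular to a treatment were mostly long genes with many sites. Psd3 (523 kb) had 125 CHD7 sites, of which 3 were +Dox-only, 3 -Dox-only and 9 all-4. Cux1, a homeobox factor, and Resf1 each had 3 +Dox-only and 0 -Dox-only sites. St7 had 0 +Dox-only and 4 -Dox-only sites, and Nf1, a negative regulator of RAS, 0 and 3.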
